A study of Drosophila melanogaster with 4 samples.

Results

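Hedgehog pathway genes were followed in sorted gonads of stage 17 embryos, over 10 genes chosen by name from the 17103 genes of the deposited table. The list holds the ligand hh, its release factor disp, the receptor ptc with the co-receptors ihog and boi, the signal transducer smo, and the cytoplasmic and nuclear components cos, Su(fu), fu and ci. All 10 were detected. The list is defined by names of core pathway components and sets no limit on a measured value. Gonads came from embryos aged 18 to 22 h kept at 25 °C, with 2 samples of genotype vas-GFP (control) and 2 samples of genotype Phf7[DN18]; vasGFP (Phf7 mutant). The vas-GFP transgene, present in every sample, marks germ cells, and whole GFP-positive gonads were collected, so the RNA comes from germ cells and from the somatic cells around them, with male and female embryos mixed. Phf7 encodes a histone reader of the male germline, and the comparison asks which transcripts differ in gonads of the mutant.

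Hedgehog is a secreted, lipid-modified signal. Cells that make it need Dispatched, a membrane protein, to release it. In receiving cells Patched keeps Smoothened inactive until Hedgehog, held by the co-receptors Ihog and Boi, binds Patched. Smoothened then acts on a complex of the kinesin-like protein Costal, the kinase Fused and Suppressor of fused, which otherwise has the transcription factor Ci cut to a repressor. Full-length Ci turns on target genes, and ptc is among them in most Drosophila tissues. In adult gonads Hedgehog is known as a niche signal, made by the hub of the testis and by terminal filament and cap cells of the ovary and received by somatic cells.

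The deposited values are mean normalized counts over the 4 libraries, so the reads of each library were recovered from the whole numbers that give the printed mean. For 11208 of 11208 genes with a mean count up to 1000 exactly 1 set of reads did so. ptc, with a mean count over 1000, also had exactly 1 set of reads in a search up to 1400. No replicate number could be tied to a recovered library, and the libraries are called control a, control b, mutant a and mutant b. The sign of the deposited ratio, at genes seen by 1 read only, gave the genotype of each. Values below are normalized reads, that is reads divided by the size factor of the library, which lies between 0.823 and 1.13. Genes with a mean count up to 1000 held 1536698 to 2130832 reads per library and 17.4% of the mean total of 10687188. As a check of the genotypes, Phf7 reads numbered 749 in control a, 495 in control b, 9 in mutant a and 44 in mutant b. Even this difference, -5.16 on the log2 scale, had an adjusted p of 0.537 in limma, so with 2 libraries per genotype the lack of a call says little about smaller differences.

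Tissue outside the gonad was present in unequal amounts. Markers of muscle summed to 741 normalized reads in control a, 2949 in control b, 3974 in mutant a and 879 in mutant b. The sum covers 9 of 10 markers, as Tm1, with a mean count of 3001, was too high for recovered reads. All 9 muscle, all 8 neuron and all 7 midgut markers with recovered reads were higher in control b than control a, and higher in mutant a than mutant b. Among 5 fat body markers Fbp1 and Adh were listed at 0, and Cg25C was not listed. Lsp1beta and Lsp2 had mean counts of 1.53 and 0.911. Whether these genes can show fat body at this age was not tested. Germ cell markers, 8 of 10 with recovered reads, summed to 5028 and 4930 in the controls and to 5510 and 5281 in the mutants. These sums leave out vas and piwi, whose mean counts of 3599 and 1540 were too high for recovered reads. In whole gonads a lower level cannot be told apart from fewer cells of the type that makes the transcript.

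hh and ptc were the most abundant Hedgehog pathway genes in these gonads. ptc had a mean count of 1332, at percentile 91.5 of all detected genes, and hh had 775, at percentile 85.4. The transducers followed, with 192 for smo, 179 for Su(fu), 152.4 for cos and 152.3 for ci, and disp had 137. The lowest were both co-receptors and the kinase, with 92.7 for ihog, 90.5 for fu and 79.0 for boi, at percentiles between 49.1 and 51.2. Libraries made from the 3′ ends of transcripts give about the same number of reads for a long and a short transcript, so these counts are not divided by length. Per kilobase of the longest annotated transcript hh would lead with 327, before ptc with 241 and Su(fu) with 112, and the other members would lie between 17.4 for boi and 47.9 for smo. In the order of mean counts the library values of ptc lay above all those of hh, and those of hh above all those of smo. From smo to boi every neighbouring pair overlapped in its library values, so these neighbours did not differ beyond their spread.

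**Figure D1:**
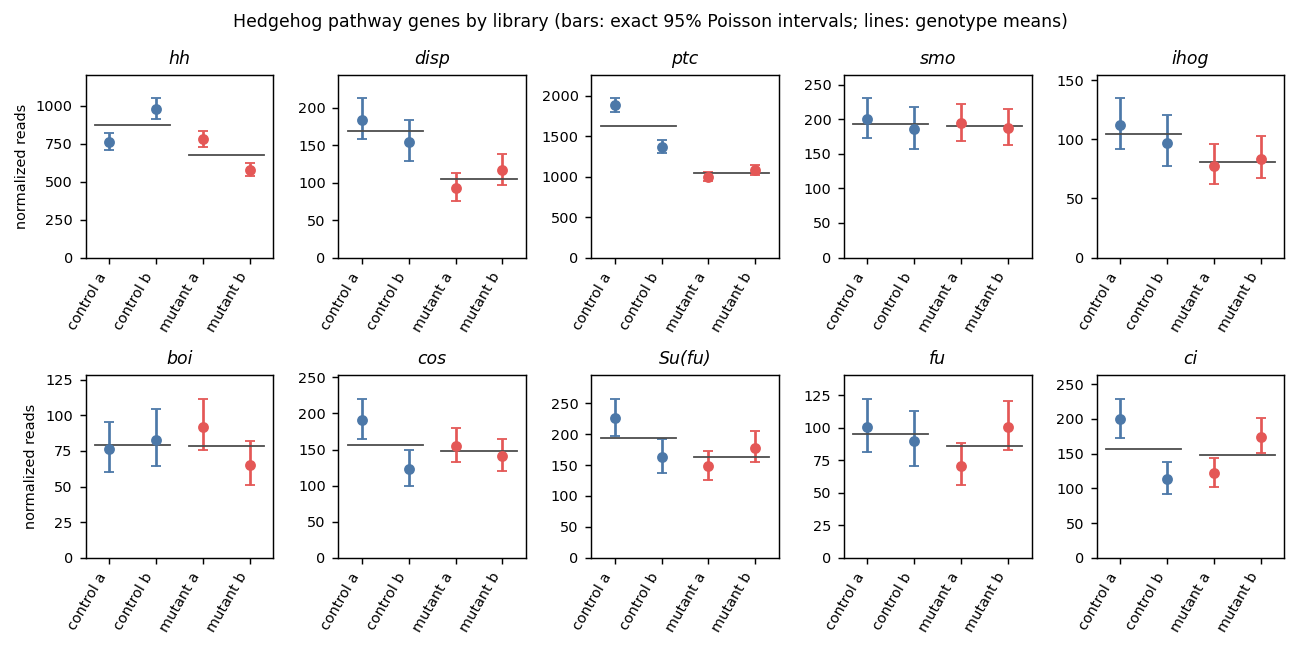
Normalized reads of each of the 10 Hedgehog pathway genes in the 4 libraries, on linear axes that start at 0 and differ between panels. Points are libraries (blue, control; red, Phf7 mutant), bars are exact 95% Poisson intervals, which cover counting error only, and horizontal lines are genotype means; the control points of disp, ptc and ihog lie above the mutant points.

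At the ligand, hh was read at 763 normalized reads in control a, 979 in control b, 779 in mutant a and 580 in mutant b. Mutant a lay between the controls and mutant b below them, so the genotypes overlapped. The means were 871 ± 153 (SD, n = 2) in controls and 679 ± 140 (SD, n = 2) in mutants. The log2 difference, mutant minus control, was -0.36 (standard error 0.32), and the 95% interval from -1.26 to 0.54 includes no difference (limma, Benjamini-Hochberg adjusted p = 0.985). The difference was -0.57 without mutant a, -0.54 without control a, -0.18 without control b and -0.15 without mutant b. hh lies on 3R from 23128169 to 23141906 on the minus strand (BDGP6, dm6 coordinates), and no other gene shares its exons.

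disp, which hh-producing cells use to release the ligand, gave the largest difference of the list. It was read at 184 normalized reads in control a, 154 in control b, 93.0 in mutant a and 117 in mutant b. Each mutant value was lower than each control value, with a ratio of control to mutant means of 1.61. The counting intervals of the closest libraries overlapped, from 129 to 184 in control b and from 97.6 to 139 in mutant b. Its log2 difference was -0.69 (standard error 0.28, 95% interval -1.50 to 0.12), with an unadjusted p of 0.0771 and an adjusted p of 0.857 from limma. disp lies on 3R from 5849697 to 5856311 on the minus strand. It shares 92 exonic bases with CG34287 on the opposite strand, outside its last 500 bases, and CG34287 was listed at 0.

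The receptor ptc, itself a target of the pathway, was lower in both mutant libraries as well. Its values were 1880 normalized reads in control a, 1366 in control b, 1001 in mutant a and 1081 in mutant b. Here the mutants were close to each other while the controls lay apart, with control a 1.38 times control b. Counting error was small for this gene, with intervals of 1795 to 1968 in control a, 1287 to 1448 in control b and 1021 to 1143 in mutant b, so the gap between controls is larger than counting error. The mean was 1623 ± 364 (SD, n = 2) in controls and 1041 ± 56.4 (SD, n = 2) in mutants, a ratio of 1.56. Over genes with a mean count up to 1400, the log2 difference was -0.62 (standard error 0.29, 95% interval -1.45 to 0.21, limma unadjusted p = 0.104, adjusted p = 0.917). Without control a the difference was -0.39 and without control b -0.85. ptc lies on 2R from 8649649 to 8665223 on the plus strand, with no exon shared with another gene.

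The co-receptors ihog and boi, related membrane proteins that can stand in for each other in Hedgehog reception, gave different values. ihog was read at 112 normalized reads in control a, 97.2 in control b, 77.9 in mutant a and 83.7 in mutant b, again with every mutant value below every control value. The counting intervals of the closest libraries overlapped, from 77.1 to 121 in control b and from 67.7 to 102.5 in mutant b. The log2 difference of ihog was -0.36 (standard error 0.26, 95% interval -1.09 to 0.36, limma adjusted p = 0.985). boi had 76.2 in control a, 82.6 in control b, 92.1 in mutant a and 65.0 in mutant b. Its mutant values lay on either side of the controls, and the log2 difference was -0.04 (95% interval -0.90 to 0.83). The difference between the genes was not tested, and their intervals overlap. ihog lies on 2L from 6945464 to 6948808, with no exon shared, and boi on X from 2444167 to 2470043, where 124 exonic bases are shared with z on the opposite strand, outside the end of boi.

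Smoothened, which carries the signal across the membrane, was the steadiest of the 10 genes. smo was read at 200.2 normalized reads in control a, 186 in control b, 194 in mutant a and 188 in mutant b. The highest library was 1.08 times the lowest, where the median gene had a ratio of 1.79. The log2 difference was -0.01 (standard error 0.25), and its 95% interval from -0.71 to 0.69 still allows changes of 1.61-fold. The reads of smo are uncertain. Of the last 500 bases of its transcript, where 3′ reads lie, 498 are also exon of CG11601 on the opposite strand, and the strand setting of the counting is not given in the sources used here. CG11601 had 175 reads in control a, 85 in control b, 164 in mutant a and 172 in mutant b. smo lies on 2L from 277582 to 282167 on the plus strand.

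At each of the 4 intracellular components the larger of the SDs within a genotype exceeded the difference between the means. Costal, a scaffold of the kinesin family, was read at 191 normalized reads in control a, 123 in control b, 155 in mutant a and 141 in mutant b. ci, which encodes the transcription factor at the end of the pathway, had 199 in control a, 113 in control b, 122 in mutant a and 175 in mutant b. In ci the control libraries differed 1.76-fold and the mutant libraries 1.43-fold. The low library of ci in each genotype was the one with more muscle, neuron and midgut reads. This order is not particular to ci. It was also seen at disp, ptc, ihog, Su(fu) and fu, and at 36.8% of all 7923 genes. Log2 differences were -0.05 for cos (95% interval -1.02 to 0.91) and -0.04 for ci (95% interval -1.25 to 1.18).

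Su(fu), which restrains Ci, was read at 226 normalized reads in control a, 163 in control b, 148 in mutant a and 178 in mutant b. The kinase gene fu had 101 in control a, 89.9 in control b, 70.9 in mutant a and 101 in mutant b. In both genes mutant a lay lowest, while mutant b lay between the controls for Su(fu) and level with control a for fu. The log2 differences were -0.24 for Su(fu) (95% interval -1.13 to 0.65) and -0.17 for fu (95% interval -1.05 to 0.71), and the adjusted p of the 4 genes in limma lay between 0.985 and 0.994. Without control a the difference of Su(fu) was 0, and without control b it was -0.47. Su(fu) lies on 3R from 12689873 to 12691468, cos on 2R from 7382176 to 7387115, fu on X from 18657755 to 18661204 and ci on chromosome 4 from 47710 to 57041. Of these, fu shares 197 exonic bases with CG6696, which had 1 read in all, and ci shares 53 with the antisense RNA gene asRNA:CR43957, which had between 134 and 208 reads per library, on the opposite strand and outside their last 500 bases. cos and Su(fu) share none.

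**Figure D2:**
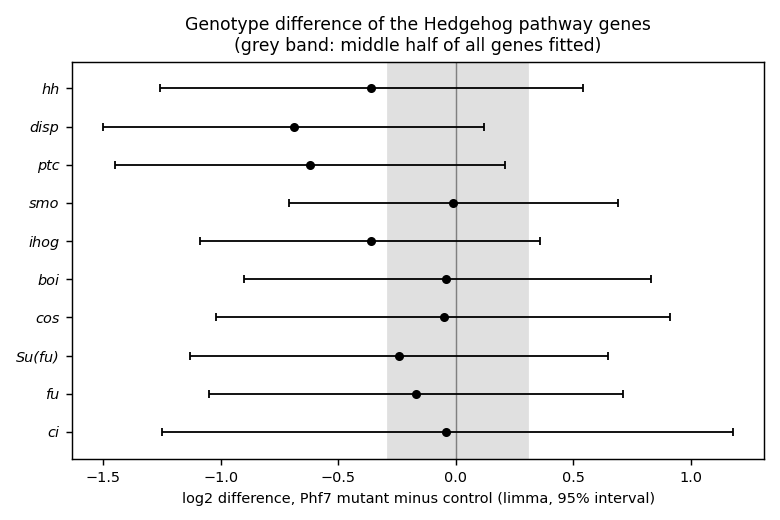
Log2 difference, Phf7 mutant minus control, of the 10 Hedgehog pathway genes (points) with 95% intervals from limma (bars), with 2 libraries per genotype. The grey band holds the middle part of all genes fitted, from -0.29 to 0.31; every interval includes 0, and disp and ptc lie farthest to the left.

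None of the 10 genes was called different between genotypes. At an adjusted p of 0.05 limma called 0 of 9 members with a mean count up to 1000 and 0 of all 7653 genes fitted (0%). At an unadjusted p of 0.05 it called 0 of these 9 members against 449 of all genes (5.87%). With genes up to a mean count of 1400, so that ptc entered, the members called were 0 of 10 at either threshold, against 0 of 7923 genes at the adjusted p (0%) and 467 at the unadjusted p (5.89%). Limma-voom up to a mean count of 1000 called 0 of 7653 genes at the adjusted p and 391 at the unadjusted p. Up to 1400, limma-voom gave ptc an unadjusted p of 0.0329 and an adjusted p of 0.921. The genes under the unadjusted threshold were not counted in that wider limma-voom fit. With 2 libraries per genotype an exact permutation test of a single gene cannot give a p below 0.333.

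Genotypes that did not overlap were found at disp, ptc and ihog, thus at 3 of 10 members, where 33% of all 7923 genes did not overlap. The share of members whose genotypes did not overlap in either direction, 30%, is near that of all genes and is not a result about the pathway. In all 3 the mutants were lower, where 17.4% of all genes did not overlap and were lower, and 3 genes are too few to read from this. The log2 difference was below 0 at 10 of 10 members, with a median of -0.21 and a range from -0.69 to -0.01, where it was below 0 at 48.5% of all genes and their median was 0.02. Of the 10 differences 5 lay between -0.17 and -0.01, close to 0 beside standard errors of 0.25 to 0.43. The genes share libraries and cells, so their signs are not independent of each other.

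**Figure D3:**
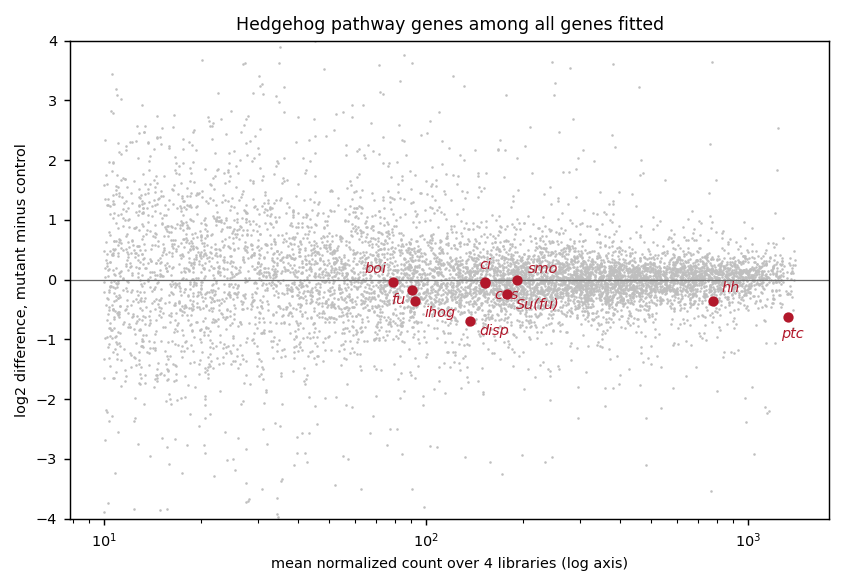
Log2 difference, mutant minus control, against the mean normalized count (log axis) for the 7923 genes fitted (grey) and the 10 Hedgehog pathway genes (red). 43 genes lie outside the plotted range of 4 in either direction; the members lie on or below 0, and ptc and hh lie at the right, among the abundant genes.

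The pattern over libraries was shared by several members. Control a was the highest library at 7 of 10 members (disp, ptc, smo, ihog, cos, Su(fu) and ci), where 27.7% of all genes were highest there. Mutant a was the lowest at 5 of 10 (disp, ptc, ihog, Su(fu) and fu), where 28.3% of all genes were lowest there. After centring each gene on its mean log2 value, the median of the 10 genes was 0.31 in control a, 0.04 in control b, -0.24 in mutant a and -0.11 in mutant b.

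Markers of the somatic gonad, like the 10 members, had their highest median in control a and their lowest in mutant a. The 5 of 10 somatic gonad markers that could be used were Fas3, eya, Wnt2, Six4 and foi. Over these 5 the same median was 0.33 in control a, -0.18 in control b, -0.32 in mutant a and 0.08 in mutant b. Here mutant b lay above control b, so the genotypes overlapped, which the medians of the members did not. tj, fax, bnb and zfh1 had mean counts of 2260 to 15460, too high for recovered reads. Sox100B, at 3.08, was too low to fit. Fas3, eya, Wnt2 and foi were each highest in control a and lowest in mutant a, as were the germ cell markers CG9925 and zpg. The share of all genes with both of these extremes was not counted. Of the somatic gonad markers, Six4 and, at few reads, Sox100B were instead lowest in control a. The 6 somatic gonad markers with recovered reads summed to 2095 normalized reads in control a, 1643 in control b, 1347 in mutant a and 1622 in mutant b. Of the sum in control a, Fas3 alone gave 1237. Medians of muscle, neuron and midgut markers lay the other way, at or below -0.96 in control a and at or above 1.32 in mutant a. Germ cell markers had medians of -0.09 in control a, -0.01 in control b, 0.11 in mutant a and 0.08 in mutant b, so both mutants lay above both controls, opposite to the members. Genotypes did not overlap at 5 of 8 germ cell markers, 4 of them higher in mutants (nos, aub, tud and otu) and zpg lower. Of all 7923 genes 2618 (33%) did not overlap. Of these 2618 genes, 1377 were lower in mutants (17.4% of all genes) and the others were higher. Limma called 0 of the 8 at the unadjusted p, and 8 genes are too few to read from this. Epidermis and trachea, another place of Hedgehog signalling, had medians of -0.13 in control a, 0.57 in control b, 0.22 in mutant a and -0.47 in mutant b over 6 of 11 markers. hh had this same order of libraries, with its highest value in control b and its lowest in mutant b. The part of any of these tissues in the members' values was not tested. In control a and mutant b alone, the libraries with less muscle, neuron and midgut RNA, the log2 difference was -0.80 for ptc, -0.65 for disp, -0.44 for cos, -0.41 for ihog, -0.40 for hh and -0.34 for Su(fu), and between -0.23 and 0 for boi, ci, smo and fu. This sets 1 library against 1 with no test, and control a was the highest library at 7 of the 10 members, so a lower value in the other library was likely from the outset.

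**Figure D4:**
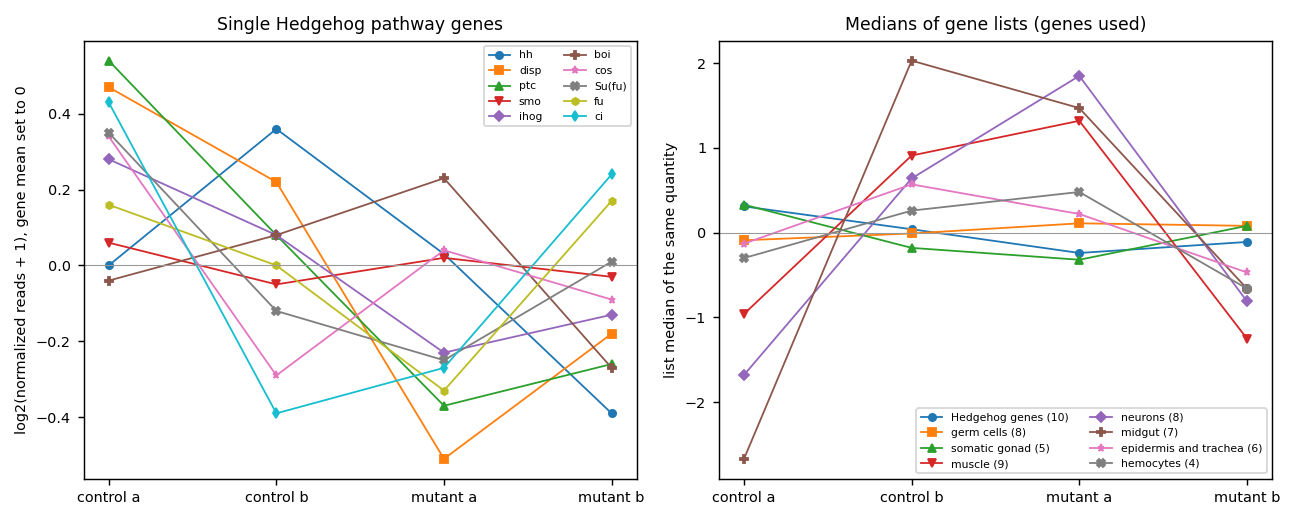
Left, log2(normalized reads + 1) of each Hedgehog pathway gene in the 4 libraries, with the mean of each gene set to 0; right, the median of the same quantity over gene lists, with the number of genes used in parentheses. Lines only join the values of 1 gene or list; the Hedgehog and somatic gonad medians are highest in control a and lowest in mutant a, while muscle, neuron and midgut medians are lowest in control a or mutant b.

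Other factors of the pathway were described with a list of 23 genes that act on the release, spread or reading of the signal. All 23 were detected, and 10 had no recovered reads, 8 with mean counts above the 1400 searched and 2, Gprk2 and Pka-R1, with more than 1 set of reads that gave the printed mean. Of 13 genes fitted, limma called 0 at the adjusted p and 1 at the unadjusted p, where it called 5.89% of all genes. Genotypes did not overlap at 4 of the 13 (30.8%), where 33% of all genes did not overlap. Of the 13, 3 did not overlap and were lower in mutants, which held for 17.4% of all genes. These shares are not a result about the list. The log2 differences had a median of -0.04, with 7 below and 6 above 0. The gene below the unadjusted threshold, which is no call after adjustment, was rasp, which encodes the acyltransferase that adds palmitate to Hedgehog in the producing cell. rasp was read at 81.3 normalized reads in control a, 81.4 in control b, 28.3 in mutant a and 41.0 in mutant b. The controls were alike and both mutants lower, with a log2 difference of -1.23 (standard error 0.31, 95% interval -2.10 to -0.36, limma unadjusted p = 0.0181, adjusted p = 0.706). rasp lies on 3L from 3162180 to 3163852 and shares exonic bases with 1 gene on the opposite strand. Whether these bases fall at the end of rasp, where 3′ reads lie, was not examined. The difference of rasp was not followed under alternative settings.

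The 4 most abundant of these factors with reads were close to equal between genotypes. slmb, the F-box protein through which Ci is processed, had a log2 difference of -0.16. Pka-C1, the kinase that marks Ci for that step, had 0.03, with 956 normalized reads in control a, 1001 in control b, 985 in mutant a and 1011 in mutant b. The ubiquitin ligase gene Ubr3 had -0.08, and rdx, an adaptor that leads full-length Ci to degradation, had 0.05. Their 95% intervals lay within -0.90 and 0.85.

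Genes that Hedgehog controls in other Drosophila tissues formed a list of 15, all detected. Of 10 fitted, 0 were called by limma at either threshold, and the median log2 difference was -0.29. Genotypes did not overlap at 4 of the 10 (40%), against 33% of all genes. Of the 10, 3 did not overlap and were lower in mutants, which held for 17.4% of all genes. These counts are too small to be a result about the list. stg and zfh1 had mean counts too high for recovered reads, and en, inv and bap were too low to fit, with mean counts of 5.90, 8.36 and 2.46. Fas3, an adhesion molecule of hub and follicle cells, was read at 1237 normalized reads in control a, 1051 in control b, 787 in mutant a and 905 in mutant b, so the genotypes did not overlap. upd1, the JAK-STAT ligand of the hub, had 672 in control a, 467 in control b, 212 in mutant a and 440 in mutant b, and did not overlap either. The counting intervals of upd1 in control b (421 to 516) and mutant b (402 to 481) did overlap. The log2 differences were -0.43 (95% interval -1.19 to 0.33) for Fas3 and -0.87 (95% interval -2.28 to 0.53) for upd1. caup, a homeobox gene of the Iroquois complex, had 0.60 and rested on mutant a with 456 normalized reads, against 162 to 224 in the other libraries. The cyclin gene CycE had -0.19, with 169 to 255 normalized reads per library. Fas3, eya and zfh1 are also among the somatic gonad markers.

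**Figure D5:**
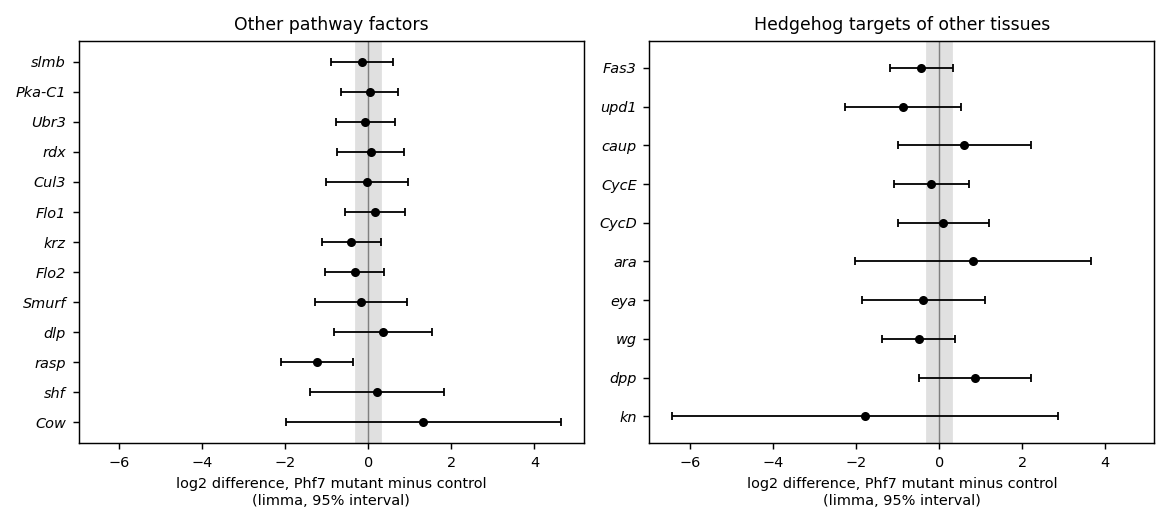
Log2 difference, Phf7 mutant minus control, with 95% intervals from limma, for the 13 other pathway factors (left) and the 10 target genes (right) that were fitted, in order of mean count. The grey band runs from -0.29 to 0.31, the middle part of all genes; rasp is the gene whose interval leaves out 0.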

How the data were processed

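Control and Phf7 mutant gonads (2 biological replicates each) were sequenced from 3′-end libraries. The authors mapped reads to dm6 with HISAT2, counted with htseq-count per gene and compared genotypes in DESeq2. Their versions, annotation and strand setting were not given in the sources used here. The deposited table gives per gene the mean normalized count over all libraries, a pooled signal, and the authors' comparison, with log2 ratio, standard error, test score and p-values. Of the deposited log2 ratio only the sign was read, to assign libraries to genotypes, and the rest of that comparison was not used.

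Each mean is a sum of 4 whole numbers, weighted by the value of 1 read (0.254, 0.304, 0.221 and 0.223). These values come from genes with a single read, whose sign gave the genotype (76 and 77 genes for controls, 109 and 110 for mutants). Sets of reads matching all 15 printed digits were searched. Of 1500 decoys 0.733% had a solution, and among genes with over 5% between genotype means, 10111 of 10111 followed the deposited sign. From 1000 to 1400, 270 of 444 genes had 1 solution and the others were left out, a step chosen after the data were seen.

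Differences were tested with limma 3.58.1 in R 4.3.3, 2-sided, on log2(normalized reads + 1) of genes whose mean count was 10 or more, and adjusted over all genes. A fold change on that scale is slightly understated for low genes. On simulated reads the test recovered most planted 4-fold changes when replicates varied little, and few when they varied more. The spreads in that simulation were set and not taken from these data. The differences of the members were all smaller than 4-fold, so this outcome does not bear on them. Poisson intervals cover counting error only. Positions come from Ensembl release 115 (BDGP 6.54). The named genes are the 10 members, and from each further list the 4 most abundant with reads and any with an unadjusted p under 0.05. Genes without reads or too low to fit, tissue markers and neighbours that share exons with a member were named outside this rule, after their values were seen. The members and lists were chosen with earlier results of these data known.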

Additional observations from a re-analysis of the deposited data

How the results depend on the processing

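No member passed an adjusted p of 0.05 under any alternative tried (pseudocount 0.5, limma-voom, no lower limit or at least 50 on the mean count, scaling to recovered totals, each library left out, a mean count up to 1400), with a lowest adjusted p of 0.768. Of 109 differences of members under alternatives 99 kept their direction, and hh, disp, ptc and ihog kept it in all. With 1 library left out, hh lay between -0.57 and -0.15 and Su(fu) between -0.47 and 0, the latter without control a. With 1 library left out the sign turned for smo (range -0.07 to 0.04, above 0 without control a and without mutant b), boi (-0.28 to 0.21, above 0 without control b and without mutant b), cos (-0.37 to 0.27, above 0 without control a and without mutant b), fu (-0.42 to 0.08, above 0 without mutant a) and ci (-0.44 to 0.37, above 0 without control a and without mutant a). In control a and mutant b alone fu came to 0. Members whose genotypes do not overlap numbered 2 up to a mean count of 1000, 3 up to 1400, and 5 to 6 with 1 library left out, where 1 library faces 2 by construction. Genes with an adjusted p under 0.05 numbered 2 with a mean count of at least 50, against 0, and 0 in each fit with a library left out. At the unadjusted p they numbered 705 with no lower limit, where more genes are tested, against 449, and 263 to 423 with a library left out, lowest without mutant a. A library left alone in its genotype is assumed to vary like the others. No paired analysis was possible because the recovered libraries carry no replicate number.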
